A study of Mus musculus with 88 samples.

Results

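*Pde10a*, *Drd1*, *Drd2*, *Adora2a*, *Rgs9*, *Ppp1r1b*, *Penk* and *Tac1* are marker genes of the striatum, and their nuclear RNA was followed here in the medial prefrontal cortex (mPFC) and the hippocampus (HIP) after contextual fear conditioning (CFC). They are 8 of the 53749 gene identifiers in the count tables, taken by symbol from the GENCODE annotation of the mouse genome. *Pde10a* stood apart from the other members. Its level in the mPFC was 1.65-fold and 1.79-fold that of naive animals 10 and 30 minutes after CFC in neuronal nuclei and 2.93-fold and 5.51-fold in non-neuronal nuclei, and it also rose in the hippocampus. In mPFC neuronal nuclei *Rgs9* was somewhat higher at 30 minutes, and *Ppp1r1b* was higher at both times by a small margin on few counts. *Drd1*, *Drd2* and *Penk* were low with overlapping libraries, and *Adora2a* and *Tac1* were near the limit of counting in neuronal nuclei. The genes were chosen by their level in counts per 1000000 counts of the library (CPM) in these mPFC libraries against the hippocampus, so their levels and CFC differences in the mPFC, and their levels in the mPFC against the hippocampus, are given as a description with no test.

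Most neurons of the striatum are medium spiny neurons, which are inhibitory and receive dopamine. Those of the direct pathway carry the D1 dopamine receptor (*Drd1*) and make substance P (*Tac1*), and those of the indirect pathway carry the D2 receptor (*Drd2*) and an adenosine receptor (*Adora2a*) and make enkephalin (*Penk*). D1 receptors and this adenosine receptor raise cyclic AMP and D2 receptors lower it. DARPP-32 (*Ppp1r1b*) passes the cyclic AMP signal on by inhibiting a phosphatase, phosphodiesterase 10A (*Pde10a*) breaks cyclic AMP and cyclic GMP down, and RGS9 (*Rgs9*) speeds the shutting off of G proteins. Several of these genes are also active at lower levels in cortical neurons, and *Pde10a* is not exclusive to the striatum.

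Nuclei of male C57BL/6J mice aged 4 months were fixed, stained for NeuN, an RNA-binding protein of neuronal nuclei, and sorted into a NeuN+ and a NeuN- fraction. Naive mice had stayed in the home cage, and CFC10 and CFC30 mice were killed 10 or 30 minutes after they were put into the chamber in which they received foot shocks. Each mPFC group had 3 libraries and each hippocampal group 4, but replicates 3 and 4 of naive hippocampal NeuN- nuclei held the same count for every gene and were counted as 1 library. In a separate set, hippocampal nuclei were sorted into NeuN+, GFAP+ (astrocyte), PU.1+ (microglia) and 3X- (negative for all 3 stains, enriched for oligodendrocytes) fractions 30 minutes after an injection of corticosterone at 2 mg/kg (Cort) or of saline (Sal), with 4 libraries in each group. Whether a library came from 1 animal or from a pool is not given in the sources used here, so p-values measure only the spread between these libraries. The mPFC libraries were made with an earlier version of the library kit than the hippocampal ones, and region and kit cannot be told apart. In bulk nuclei, fewer nuclei of a type and less RNA per nucleus cannot be told apart either.

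Total counts per library were 10577263 to 16392677 (median 11563921) in the 18 mPFC libraries, 10561897 to 18271372 (median 12296222) in the 23 hippocampal CFC libraries and 5935395 to 12758257 (median 8150233) in the 32 libraries of injected animals. The defining markers of both tissues were present. Over the 9 mPFC NeuN+ libraries the cortical upper-layer gene *Cux2* had a median of 331 CPM, against 54.3 CPM over the 12 hippocampal NeuN+ libraries, and the hippocampal genes *Prox1* and *Fibcd1* had medians of 9.29 and 1.33 CPM in the mPFC against 139 and 32 CPM in the hippocampus. Of the 27 other striatal genes in the tables, 14 were at 5 CPM or more in every mPFC NeuN+ library, among them *Foxp1* (median 367 CPM), and 8 never reached 2 CPM. Of the latter, *Isl1*, a transcription factor of direct-pathway neurons, lay between 0 and 0.166 CPM, and *Gpr6*, a receptor of indirect-pathway neurons, between 0 and 0.258 CPM. A count of 0 in these libraries allows a level of up to 0.183 to 0.258 CPM (3 counts), an allowance for counting error only.

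On GRCm38, *Pde10a* (ENSMUSG00000023868) is a gene of 461277 bp on the plus strand, chr17:8525372-8986648. The others are much shorter. *Drd1* (ENSMUSG00000021478) lies at chr13:54051183-54055705 on the minus strand, *Drd2* (ENSMUSG00000032259) at chr9:49340627-49408177 on the plus strand and *Adora2a* (ENSMUSG00000020178) at chr10:75316877-75334784 on the plus strand. *Rgs9* (ENSMUSG00000020599) lies at chr11:109225355-109298129 on the minus strand and *Ppp1r1b* (ENSMUSG00000061718) at chr11:98348404-98357796 on the plus strand. *Penk* (ENSMUSG00000045573) lies at chr4:4133531-4138819 on the minus strand and *Tac1* (ENSMUSG00000061762) at chr6:7554879-7565834 on the plus strand. Reads were counted over the whole gene body, introns included, so a long gene collects more counts than a short one at the same level of transcription. *Penk* overlaps *A830012C17Rik* on the opposite strand, which had 255 counts in the mPFC table against 919 for *Penk* and 694 against 866 in the hippocampal one. The strand setting of the counting is not given in the sources used here, so the counts of *Penk* are uncertain. *Ppp1r1b* overlaps *1700003D09Rik*, which had only 50 counts against 1289 in the mPFC, and the genes that overlap *Pde10a* had at most 55 counts against 307102.

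The promoter sequences of *Pde10a* are shown because this member carried most of the differences, and that of *Tac1* because it alone held any of the motifs searched. Windows of 250 bases before to 50 bases after a transcription start were taken from RefSeq for GRCm38.p6. Both *Pde10a* windows are on the plus strand and inside the gene as GENCODE draws it, at chr17:8801495-8801794 with 71.3% G or C and at chr17:8849735-8850034 with 56.7%. The *Tac1* window is on the plus strand at chr6:7554811-7555110 with 54% G or C. Capitals mark CGTCA, the reverse complement of the short cyclic AMP response element (CRE) motif TGACG.
Pde10a, first start: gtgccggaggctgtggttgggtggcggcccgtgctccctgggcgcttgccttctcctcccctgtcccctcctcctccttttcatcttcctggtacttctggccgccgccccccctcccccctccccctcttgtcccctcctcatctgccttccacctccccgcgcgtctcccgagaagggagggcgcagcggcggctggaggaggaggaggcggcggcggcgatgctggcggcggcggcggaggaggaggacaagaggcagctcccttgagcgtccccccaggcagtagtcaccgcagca
Pde10a, second start: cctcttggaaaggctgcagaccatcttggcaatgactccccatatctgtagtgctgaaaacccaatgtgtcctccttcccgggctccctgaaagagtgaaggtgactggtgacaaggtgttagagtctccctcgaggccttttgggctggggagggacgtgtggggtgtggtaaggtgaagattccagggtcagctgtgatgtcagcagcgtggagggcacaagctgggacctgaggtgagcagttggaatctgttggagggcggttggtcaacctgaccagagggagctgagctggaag
Tac1: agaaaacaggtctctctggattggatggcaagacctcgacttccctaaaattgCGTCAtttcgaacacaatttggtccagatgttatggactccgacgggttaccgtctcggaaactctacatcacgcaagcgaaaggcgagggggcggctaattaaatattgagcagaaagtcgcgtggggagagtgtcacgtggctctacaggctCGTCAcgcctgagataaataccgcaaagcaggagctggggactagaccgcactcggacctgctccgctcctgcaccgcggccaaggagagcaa

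Motifs of factors that respond to neuronal activity were searched on both strands. These were the full CRE (TGACGTCA), the short CRE motif (TGACG, which is part of the full one), the EGR motif (GCGTGGGCG) and the AP-1 motif (TGACTCA). Of 32817 promoter windows of the same length, 1.79% held the full CRE, 20.8% the short one, 0.612% the EGR motif and 5.2% the AP-1 motif. Windows were found for 5 of the 8 members, 2 each for *Pde10a* and *Drd1* and 1 each for *Drd2*, *Rgs9* and *Tac1*. The *Tac1* window held the short CRE motif at 2 places, and no window of the other 4 members held any of the motifs. This says only that these letters are not in these windows.

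*Pde10a* in mPFC NeuN+ nuclei was at 1368, 1527 and 1401 CPM in the naive libraries. It was at 2204, 2067 and 2835 CPM in the CFC10 and at 2675, 2443 and 2559 CPM in the CFC30 libraries. Every CFC library lay above every naive library, and CFC10 and CFC30 overlapped. The means were 1432 ± 83.7 CPM (SD, n = 3) in naive, 2369 ± 410 CPM in CFC10 and 2559 ± 116 CPM in CFC30 nuclei, and the fitted log2 fold change was 0.73 (SE 0.08) at 10 and 0.86 (SE 0.08) at 30 minutes. Per length, as CPM per kilobase of gene body (FPKM), *Pde10a* ranked 672 in naive, 307 in CFC10 and 265 in CFC30 nuclei among the genes with any count. The high spread at 10 minutes came from replicate 3, and the CFC10 difference without that library was 0.56 on the log2 scale.

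In mPFC NeuN- nuclei, *Pde10a* was at 155, 154 and 164 CPM in the naive libraries. It was at 358, 343 and 685 CPM in the CFC10 and at 931, 913 and 765 CPM in the CFC30 libraries. None of the 3 groups overlapped, and each CFC30 library was above each CFC10 library. The means were 158 ± 5.73 CPM (SD, n = 3), 462 ± 193 CPM and 870 ± 90.8 CPM, with fitted log2 fold changes of 1.56 (SE 0.20) and 2.49 (SE 0.20). At 30 minutes the difference was the 68th highest of the 14866 genes tested, and the rank of *Pde10a* by FPKM went from 12103 in naive to 6500 in CFC10 and 2726 in CFC30 nuclei. Replicate 3 was again the highest CFC10 library, and without it the 10-minute difference was 1.15 on the log2 scale. The labels do not say whether the NeuN+ and NeuN- libraries of one replicate number came from the same animals.

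**Figure D1:**
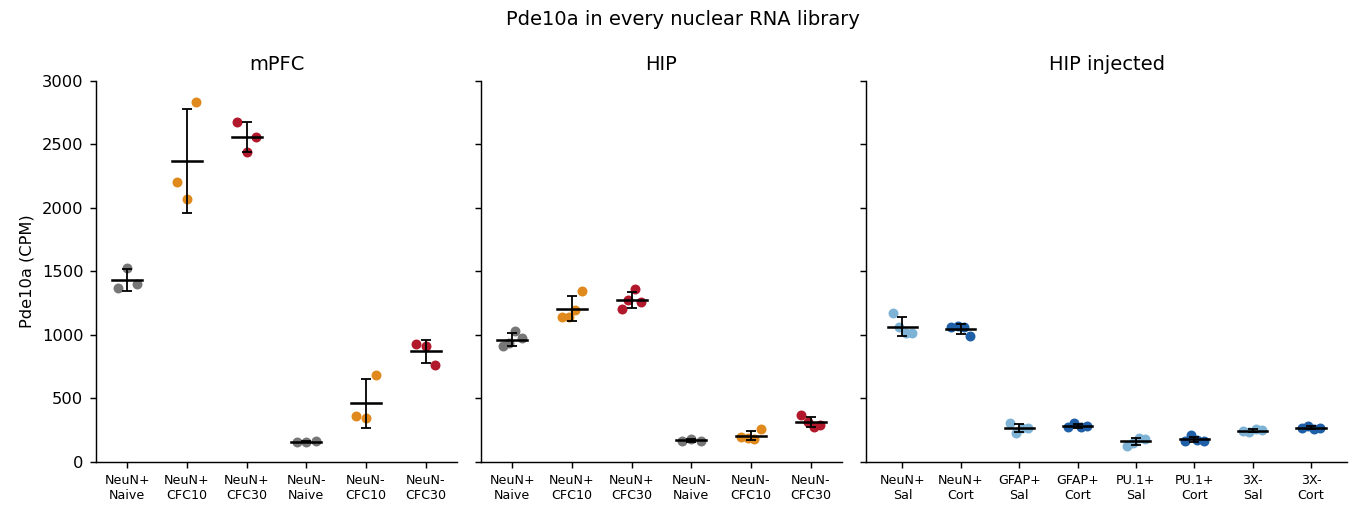
CPM of *Pde10a* in each library (points) of the mPFC, the hippocampus and the hippocampus of injected animals, with the mean and SD of each group (bars). In the mPFC all CFC libraries of both fractions lie above the naive ones (1368 to 1527 CPM in NeuN+, 154 to 164 CPM in NeuN-), and the hippocampal differences are smaller.

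The NeuN+ level of *Pde10a* in the mPFC was 9.08-fold the NeuN- level in naive animals, 5.12-fold in CFC10 and 2.94-fold in CFC30 animals. The summed levels of 2 lists of neuronal markers in the NeuN- fraction overlapped between naive and CFC animals or were lower after CFC. Summed over the 10 GABAergic interneuron markers, the NeuN- libraries were at 501 to 562 CPM in naive, 409 to 497 CPM in CFC10 and 424 to 600 CPM in CFC30 nuclei, and 0 of the 5 markers tested changed at either time (edgeR, adjusted p under 0.05, with 1.71% of all genes called at 10 and 5.85% at 30 minutes). Summed over the 9 cortical projection neuron markers they were at 978 to 1000 CPM, 914 to 1022 CPM and 957 to 1052 CPM, and 0 of 7 changed. At an unadjusted p under 0.05, 2 GABAergic and 1 projection neuron marker passed at 10 minutes and 0 and 1 at 30 minutes, and DESeq2 also called 0 of either list. The projection neuron sum does not follow neurons alone. In naive hippocampus it was higher in NeuN- (872 to 891 CPM) than in NeuN+ nuclei (366 to 416 CPM), and after saline GFAP+ nuclei held 1333 to 1563 CPM. A steady sum of the projection neuron list therefore says little about neuronal RNA in the NeuN- fraction. The GABAergic sum was higher in NeuN+ nuclei but not confined to them, at 1291 to 1473 CPM in NeuN+ and 657 to 814 CPM in 3X- nuclei after saline. A steady GABAergic sum is a limited guide too. Other lists differed along with *Pde10a* in mPFC NeuN- nuclei. The 12 early response genes summed to 25.2 to 26.8 CPM in naive, 52.3 to 64.4 CPM in CFC10 and 86.2 to 132 CPM in CFC30 NeuN- nuclei, and 4 and 5 of the 7 tested rose. The 7 oligodendrocyte markers summed to 4686 to 5063 CPM, 5561 to 5796 CPM and 5281 to 5745 CPM, with 2 of 7 higher at each time, and the 5 microglia markers to 806 to 831 CPM, 618 to 730 CPM and 640 to 767 CPM, with 1 of 5 lower. At 30 minutes these were the myelin genes *Mobp* (0.74 on the log2 scale) and *Mal* (0.42) and the microglial receptor gene *P2ry12* (-0.59). The 3 oligodendrocyte precursor markers were lower without overlap, at 595 to 648 CPM in naive, 481 to 577 CPM in CFC10 and 525 to 552 CPM in CFC30 nuclei, with 1 of 3 called lower at 10 minutes (*Cspg4*, -0.39, with 2 called by DESeq2) and 0 at 30 minutes (0 by DESeq2, and 2 at an unadjusted p under 0.05). The 5 hippocampal neuron genes summed to 2644 to 2724 CPM in naive, 2606 to 2799 CPM in CFC10 and 2792 to 3019 CPM in CFC30 nuclei, with 0 of 3 called at either time (0 by DESeq2, and 0 and 1 at an unadjusted p under 0.05). That sum does not follow hippocampal neurons alone. After saline it was 3672 to 4097 CPM in GFAP+ nuclei of the hippocampus, against 2479 to 2709 CPM in NeuN+ nuclei. The 3 endothelial markers had a median log2 fold change of 0.03 at 10 and 0.48 at 30 minutes (0.47 to 0.53). None was called (0 also by DESeq2 and 0 at an unadjusted p under 0.05). Of the 5 astrocyte markers, 0 rose at 10 and 1 at 30 minutes, when their log2 fold changes ran from -0.13 to 0.56. The 17 other striatal projection neuron genes summed to 1222 to 1279 CPM in naive, 1301 to 1381 CPM in CFC10 and 1554 to 1681 CPM in CFC30 nuclei. Of these, 1 of 7 tested (*Pde7b*) rose at each time, and the median log2 fold change of the 7 was 0.01 and 0.13. *Pde7b* alone went from 246 to 285 CPM in naive to 542 to 594 CPM in CFC30 libraries. The part of all these lists in the *Pde10a* difference was not tested.

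*Pde10a* also rose in the hippocampus, at both times in NeuN+ nuclei and at 30 minutes in NeuN- nuclei. In hippocampal NeuN+ nuclei it was at 913, 936, 1027 and 977 CPM in naive, at 1144, 1144, 1192 and 1346 CPM in CFC10 and at 1207, 1272, 1358 and 1260 CPM in CFC30 libraries. Every CFC library was above every naive library. *Pde10a* rose by 0.29 on the log2 scale at 10 minutes (SE 0.05, adjusted p = 0.00456, edgeR) and by 0.39 at 30 minutes (SE 0.05, adjusted p = 0.000185, edgeR), folds of 1.22 and 1.31. It was the 1 member called of 4 tested at each time, where 4.86% and 8.56% of all genes were called. Leaving out any 1 library kept the adjusted p of edgeR between 0.00463 and 0.0214 at 10 and between 2.65e-05 and 0.00127 at 30 minutes. The choice of the genes set the mPFC against hippocampal levels, and earlier results of these data were known. The hippocampal tests of the members may therefore not be fully independent of that choice.

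In hippocampal NeuN- nuclei, *Pde10a* was at 162, 180 and 161 CPM in the 3 distinct naive libraries and at 196, 190, 179 and 255 CPM in CFC10 libraries, which overlapped the naive ones. The CFC30 libraries were at 367, 312, 275 and 290 CPM, all above the naive and the CFC10 libraries. The log2 fold change was 0.25 at 10 minutes (SE 0.11, adjusted p = 0.312, edgeR), which did not pass the test, though it did when genes with low values were kept in the fit (0.28, adjusted p = 0.00939). At 30 minutes *Pde10a* rose by 0.89 (SE 0.11, adjusted p = 0.00103, edgeR), a fold of 1.85, the 328th highest of 14802 genes tested. No member of 4 was called at 10 minutes (0 also with DESeq2, and 1 at an unadjusted p under 0.05), and 1 of 4 at 30 minutes, where 0.345% and 2.38% of all genes were called.

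Marker sums of hippocampal NeuN- nuclei overlapped between naive and CFC30 libraries for GABAergic interneurons (446 to 469 CPM, and a median of 409 CPM in CFC30), cortical projection neurons (872 to 891 and 782 to 900 CPM), astrocytes (4706 to 4855 and 4538 to 4998 CPM) and microglia (518 to 618 and 452 to 655 CPM). Though the astrocyte sums overlapped, 1 of 5 astrocyte markers rose, and the log2 fold changes of the 5 ran from -0.25 to 0.45. Of all genes, 2.38% were called in this comparison. Oligodendrocyte markers were higher, at 4665 to 4947 CPM in naive and 5068 to 5508 CPM in CFC30 libraries, and *Mobp* alone of 7 rose (0.62, adjusted p = 0.00295, edgeR). Early response genes went from 24.1 to 29.9 CPM in naive to 33.5 to 53.7 CPM in CFC30 libraries, with 2 of 7 tested risen. In hippocampal NeuN+ nuclei the same genes were at 75.7 to 86.8 CPM in naive, 154 to 171 CPM in CFC10 and 104 to 155 CPM in CFC30 libraries. Their part in the rise of *Pde10a* was not tested.

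The rise at 30 minutes was 0.49 larger on the log2 scale in hippocampal NeuN- than in NeuN+ nuclei (SE 0.13), a difference between fractions that did not pass the test over all genes (unadjusted p = 0.00105, adjusted p = 0.145, edgeR, 0.293% of genes called). With low-value genes kept in the fit it was 0.51 with an adjusted p of 4.48e-05. At 10 minutes the fractions differed by -0.06 (SE 0.13, adjusted p = 0.986, edgeR, 0.0312% of genes called). This comparison was added after the values were seen. In naive hippocampus, *Pde10a* was lower in NeuN- than in NeuN+ nuclei by -2.99 on the log2 scale (SE 0.11, adjusted p = 6.63e-20, edgeR). All 5 members tested differed between the naive hippocampal fractions, as did 70.8% of all genes, and the median gene lay 0.38 higher in NeuN- nuclei by CPM and 0.05 by the scaling of edgeR.

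By group mean, *Pde10a* was highest in mPFC NeuN+ nuclei of CFC30 and CFC10 animals, which overlapped, followed by naive mPFC NeuN+ nuclei, whose lowest library (1368 CPM) was just above the highest hippocampal one (1358 CPM). Hippocampal NeuN+ nuclei of CFC30 and CFC10 animals came next and overlapped, and below them naive hippocampal NeuN+ and CFC30 mPFC NeuN- nuclei overlapped too. CFC10 mPFC NeuN- nuclei overlapped CFC30 hippocampal NeuN- nuclei, and lowest were the CFC10 and naive hippocampal and naive mPFC NeuN- nuclei, of which neighbours overlapped. Naive mPFC nuclei were 1.49-fold naive hippocampal nuclei in the NeuN+ fraction, with no overlap, and 0.942-fold in the NeuN- fraction, where the libraries overlapped. In the hippocampus of injected animals, NeuN+ nuclei were at 1173, 1060, 1011 and 1012 CPM after saline and at 1061, 1072, 1059 and 989 CPM after corticosterone. These groups overlapped and the fitted difference was 0.00 (SE 0.04, adjusted p = 0.991, edgeR). None of the 4 members tested in NeuN+ nuclei was called after corticosterone (0 also with DESeq2 and 0 at an unadjusted p under 0.05), where 2.06% of all genes were called. The glial fractions held less *Pde10a*, with 227 to 308 CPM in GFAP+ and 126 to 209 CPM in PU.1+ nuclei, where saline and corticosterone libraries overlapped. In 3X- nuclei it was at 232 to 257 CPM after saline and 261 to 283 CPM after corticosterone, without overlap. Differences in the glial fractions were not tested.

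The receptor genes were low. *Drd1*, the D1 dopamine receptor, was at 3.27, 2.74 and 3.39 CPM in naive, 2.56, 2.92 and 2.48 CPM in CFC10 and 3.10, 3.60 and 3.26 CPM in CFC30 mPFC NeuN+ libraries. All 3 groups of *Drd1* overlapped except that the CFC30 libraries lay above the CFC10 ones, and the fitted differences from naive were -0.24 (SE 0.18) and 0.11 (SE 0.17) on the log2 scale. It was higher in the mPFC than in hippocampal NeuN+ nuclei, where the 12 libraries ran from 0.416 to 1.61 CPM, and no library of one region reached into the other. *Drd1* did not pass the test in hippocampal NeuN+ nuclei, with log2 fold changes of -0.35 (SE 0.34, adjusted p = 0.602, edgeR) at 10 and -0.42 (SE 0.35, adjusted p = 0.506, edgeR) at 30 minutes. In NeuN- nuclei it lay between 0 and 0.662 CPM in the mPFC and between 0 and 0.287 CPM in the hippocampus, where a count of 0 allows up to 0.284 CPM.

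*Drd2*, the D2 dopamine receptor, was at 1.81, 3.32 and 2.58 CPM in naive, 3.47, 2.99 and 2.94 CPM in CFC10 and 2.27, 2.20 and 5.43 CPM in CFC30 mPFC NeuN+ libraries. The 3 groups overlapped, and so did the mPFC with the hippocampus, where NeuN+ libraries ran from 1.67 to 3.48 CPM. *Adora2a*, the adenosine receptor that medium spiny neurons of the indirect pathway carry beside D2, went the other way between fractions. It was at 0.122 to 0.465 CPM in mPFC NeuN+ and at 2.08 to 3.33 CPM in mPFC NeuN- nuclei, with no overlap. The hippocampus had the same order, at 0 to 0.333 CPM in NeuN+ and 1.97 to 3.71 CPM in NeuN- nuclei. In injected animals *Adora2a* was at 2.34 to 4.76 CPM in GFAP+ nuclei, 0.677 to 2.89 CPM in 3X- nuclei and 0.512 to 2.04 CPM in PU.1+ nuclei. Neither *Drd2* nor *Adora2a* passed the filter on low values (0.2 FPKM) in any comparison, so neither was tested with it. Without the filter neither passed in a hippocampal CFC comparison (lowest adjusted p = 0.149, edgeR, for *Drd2* at 10 minutes in NeuN+ nuclei). The 5 other genes of dopamine signalling on a fixed list (*Drd3*, *Drd4*, *Drd5*, *Th* and *Slc6a3*) summed to 0.488 to 1.49 CPM in mPFC NeuN+ libraries, and none of them could be tested there.

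Of the signalling proteins, *Rgs9* was clearly counted in both fractions. In mPFC NeuN+ nuclei it was at 36.8, 38.8 and 33.4 CPM in naive, 40.1, 45.9 and 37.1 CPM in CFC10 and 48.7, 48.6 and 51.4 CPM in CFC30 libraries. The CFC30 libraries lay above all others and the CFC10 libraries overlapped the naive ones, with fitted log2 fold changes of 0.18 (SE 0.07) and 0.47 (SE 0.07). In mPFC NeuN- nuclei *Rgs9* was at 17.8 to 25.1 CPM in naive, 16.8 to 20.6 CPM in CFC10 and 18.3 to 20.9 CPM in CFC30 libraries, which overlapped. In hippocampal NeuN+ nuclei it was at 34.2 to 40.7 CPM in naive, 35.3 to 40.8 CPM in CFC10 and 38.9 to 42.8 CPM in CFC30 libraries, and did not pass the test (-0.01, SE 0.06, adjusted p = 0.923, and 0.11, SE 0.06, adjusted p = 0.246, edgeR). It was lower in naive hippocampal NeuN- than NeuN+ nuclei by -1.17 on the log2 scale (SE 0.09, adjusted p = 2.76e-12, edgeR).

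*Ppp1r1b*, the DARPP-32 gene, was at 4.39, 5.81 and 6.13 CPM in naive, 6.95, 6.92 and 6.34 CPM in CFC10 and 6.54, 7.93 and 6.67 CPM in CFC30 mPFC NeuN+ libraries. The lowest CFC library was above the highest naive one by a small margin, and the fitted log2 fold changes were 0.30 (SE 0.14) and 0.40 (SE 0.14). With 51 to 130 counts in these libraries, that margin is within counting error. Without naive replicate 1 the 30-minute difference of *Ppp1r1b* was 0.27 on the log2 scale. In mPFC NeuN- nuclei it was at 5.11 to 5.65 CPM in naive, 4.99 to 6.61 CPM in CFC10 and 3.57 to 5.42 CPM in CFC30 libraries, which overlapped. *Ppp1r1b* differed from the other tested members in the hippocampus, where the naive NeuN- fraction (6.77 to 8.10 CPM) was above the NeuN+ fraction (0.834 to 1.61 CPM) by 2.20 on the log2 scale (SE 0.21, adjusted p = 1.94e-10, edgeR), a fold of 4.58. In injected animals *Ppp1r1b* was highest in GFAP+ nuclei, at 18.7 to 23.7 CPM after saline and 26.7 to 30.0 CPM after corticosterone, against at most 2.21 CPM in PU.1+ and 1.56 CPM in 3X- nuclei. The corticosterone libraries of GFAP+ nuclei did not overlap the saline ones, a difference that was not tested.

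Over mPFC NeuN+ nuclei, 1 of the 5 members tested (*Pde10a*) passed the test of all genes at 10 minutes and 3 (*Pde10a*, *Rgs9* and *Ppp1r1b*) at 30 minutes, where 14.4% and 24.7% of all genes were called. In mPFC NeuN- nuclei *Pde10a* alone of 4 passed at both times, where 1.71% and 5.85% of all genes were called. These calls come from the comparisons that the choice of the genes had in view, and nothing is read from them.

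**Figure D2:**
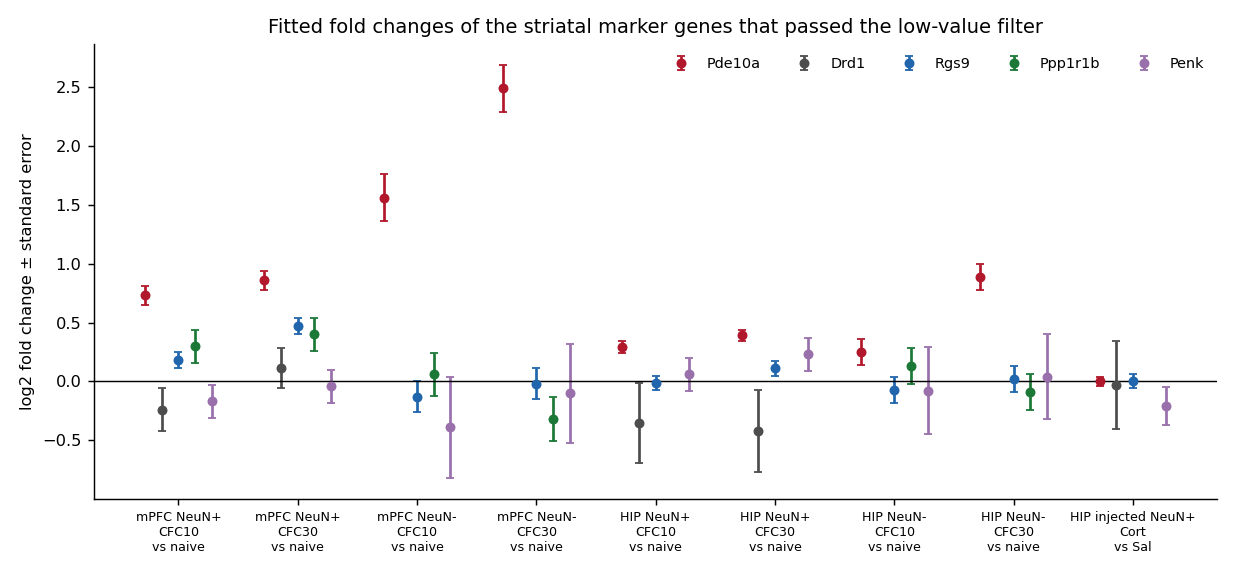
Fitted log2 fold changes of the 5 members that passed the filter on low values, with standard errors, in each comparison. *Pde10a* is the highest point in all 8 CFC comparisons, from 0.25 to 2.49, and is at 0.00 in NeuN+ nuclei after corticosterone, the only fraction fitted there.

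Of the peptide precursors, *Penk*, which encodes proenkephalin, was at 6.80, 7.55 and 6.62 CPM in naive, 5.13, 7.47 and 5.88 CPM in CFC10 and 5.92, 6.41 and 7.91 CPM in CFC30 mPFC NeuN+ libraries. The groups overlapped, with log2 fold changes of -0.17 (SE 0.14) and -0.04 (SE 0.14). In hippocampal NeuN+ nuclei *Penk* was at 3.58 to 5.37 CPM, and it did not pass the test at 10 minutes (0.06, SE 0.14, adjusted p = 0.839, edgeR) or 30 minutes (0.23, SE 0.14, adjusted p = 0.34, edgeR). NeuN- nuclei held less of it, at 0.549 to 1.99 CPM in the mPFC and 0.502 to 1.65 CPM in the hippocampus, and the naive hippocampal fractions differed by -2.23 on the log2 scale (SE 0.25, adjusted p = 3.51e-09, edgeR). *Tac1*, which encodes the precursor of substance P, was at 0.517 to 1.24 CPM in mPFC NeuN+ nuclei, 0.0876 to 0.789 CPM in mPFC NeuN- nuclei and 0.284 to 1.06 CPM in hippocampal NeuN- nuclei. In hippocampal NeuN+ nuclei *Tac1* was at 0.250, 0.124, 0.246 and 0.338 CPM in naive, 0.660, 0.275, 0.281 and 0.602 CPM in CFC10 and 0.614, 0.416, 0.645 and 0.733 CPM in CFC30 libraries. All CFC30 libraries were above all naive ones, on 5 to 10 counts against 2 to 4, and the CFC10 libraries overlapped both. Without the filter the log2 fold change of *Tac1* at 30 minutes was 1.37 (SE 0.50, adjusted p = 0.107, edgeR), which did not pass. It failed the filter on low values throughout, so the short CRE motif in its promoter window is that of a member with few counts.

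**Figure D3:**
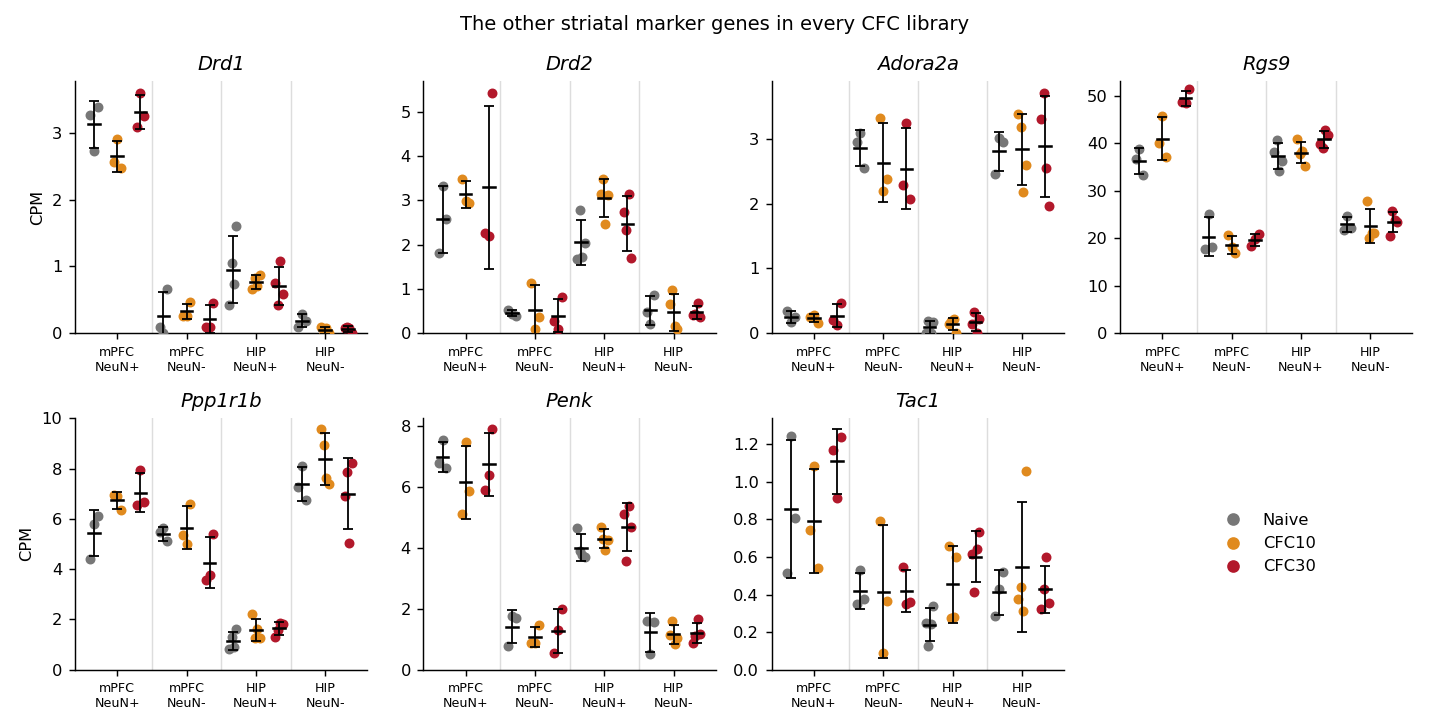
CPM of the other 7 members in each CFC library (points), with the mean and SD of each group (bars), on a separate axis for each gene. *Rgs9* in mPFC NeuN+ nuclei is the one panel in which the CFC30 libraries (48.6 to 51.4 CPM) stand clear of all others of their fraction, and *Adora2a* and hippocampal *Ppp1r1b* are higher in NeuN- nuclei.

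Per length, the order of the members in mPFC NeuN+ nuclei was not that of their counts. *Pde10a* ran from 2.97 to 6.15 FPKM over the 9 libraries and *Penk* from 0.969 to 1.5 FPKM. *Ppp1r1b* (0.468 to 0.844 FPKM), *Drd1* (0.547 to 0.796 FPKM) and *Rgs9* (0.459 to 0.706 FPKM) overlapped each other. *Tac1* lay at 0.0472 to 0.114 FPKM, *Drd2* at 0.0268 to 0.0803 FPKM and *Adora2a* at 0.00681 to 0.0260 FPKM.

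A list of 28 other genes of striatal neurons was set beside the members, and 27 of them were in the tables. In mPFC NeuN+ libraries 8 of the 27 never reached 2 CPM, among them *Isl1*, *Gpr6*, *Ido1* and *Sh3rf2*, while 14 stayed at or above 5 CPM in every library, among them *Foxp1* (351 to 377 CPM) and *Meis2* (244 to 292 CPM), which cortical neurons also express. In hippocampal NeuN+ libraries these counts were also 8 and 14. Of the 16 list genes that could be tested in mPFC NeuN+ nuclei, 3 rose at 10 minutes, where 1 fell, and 4 rose at 30 minutes, where 2 fell (edgeR, adjusted p under 0.05). That is 4 and 6 of 16 genes called, beside 14.4% and 24.7% of all genes, with a median log2 fold change of 0.04 and -0.01 against 0.01 and 0.00 over all genes. The summed level of the 17 general projection neuron genes on it was 1267 to 1320 CPM in naive, 1348 to 1457 CPM in CFC10 and 1411 to 1437 CPM in CFC30 nuclei, of which *Pde7b* made up 180, 286 and 293 CPM on average. The summed level of the 8 direct-pathway genes was 67.3 to 72.0 CPM, 58.8 to 65.5 CPM and 57.9 to 61.0 CPM, and that of the indirect-pathway genes 0.726 to 1.41 CPM, 0.662 to 1.01 CPM and 0.619 to 1.09 CPM.

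*Pde7b*, a phosphodiesterase that breaks down cyclic AMP, moved most like *Pde10a* on this list. It was at 169, 185 and 185 CPM in naive, 249, 253 and 356 CPM in CFC10 and 293, 294 and 291 CPM in CFC30 mPFC NeuN+ libraries, and rose by 0.67 (SE 0.09, adjusted p = 1.42e-05) and 0.72 (SE 0.09, adjusted p = 2.08e-06, edgeR). In mPFC NeuN- nuclei it was at 265, 285 and 246 CPM, then 364, 329 and 392 CPM and 594, 554 and 542 CPM, and rose by 0.45 (SE 0.08, adjusted p = 0.0103) and 1.11 (SE 0.08, adjusted p = 9.35e-07, edgeR). None of the 3 groups overlapped. In the hippocampus *Pde7b* rose in NeuN- nuclei at 30 minutes by 0.50 (SE 0.08, adjusted p = 0.00558, edgeR), and did not pass the test in NeuN- nuclei at 10 minutes (0.19, adjusted p = 0.283) or in NeuN+ nuclei (0.08 and 0.10, adjusted p = 0.613 and 0.473, edgeR). It was the only list gene called in NeuN- nuclei of either region.

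The other list genes that moved in mPFC NeuN+ nuclei at 30 minutes went both ways. *Bcl11b*, a transcription factor of deep-layer cortical and of striatal neurons, rose by 0.37 (SE 0.07, adjusted p = 0.000191, edgeR). *Adcy5*, an adenylyl cyclase, rose by 0.21 (SE 0.06, adjusted p = 0.00754, edgeR) and *Chrm4*, the M4 muscarinic receptor, by 0.66 (SE 0.16, adjusted p = 0.00396, edgeR). *Pde1b*, a calcium-dependent phosphodiesterase, fell by 0.20 (SE 0.06, adjusted p = 0.022, edgeR) and *Sfxn1*, a mitochondrial serine carrier, by 0.33 (SE 0.09, adjusted p = 0.00674, edgeR). *Tshz1*, a zinc finger gene of direct-pathway neurons, did not pass (-0.20, SE 0.08, adjusted p = 0.0651, edgeR).

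**Figure D4:**
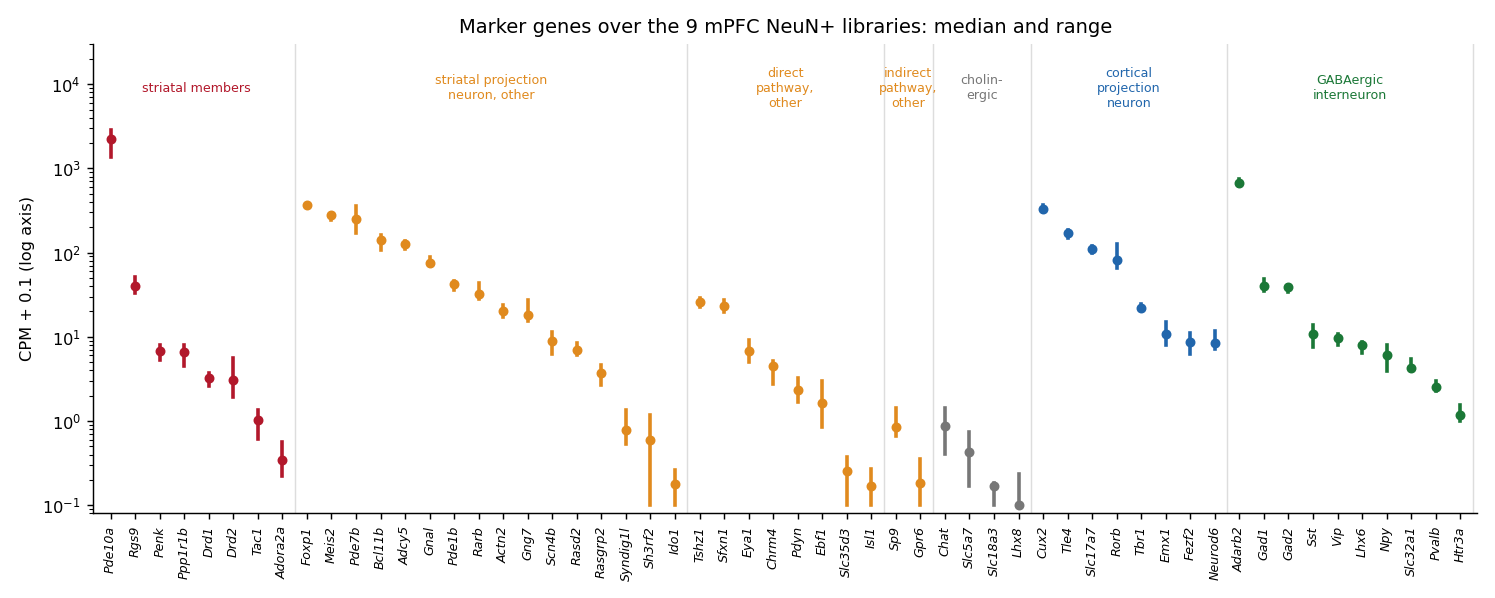
Median (point) and range (line) of the CPM, with 0.1 added and on a log axis, over the 9 mPFC NeuN+ libraries for the members and the reported genes of the lists of other striatal genes, cholinergic neurons, cortical projection neurons and GABAergic interneurons. Levels are not per length, so heights of different genes are not to be compared, and *Isl1*, *Gpr6*, *Ido1* and *Lhx8* reach the floor of the plot.

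Among the lists for other tissues next to the mPFC, the 4 cholinergic neuron markers summed to 0.464 to 1.94 CPM in mPFC NeuN+ libraries and the 4 olfactory bulb markers to 0.698 to 2.16 CPM, with *Eomes* at 0 counts in all 9. The 4 septum markers summed to 76.0 to 85.3 CPM, and the 1 tested did not pass. The sums of the oligodendrocyte and astrocyte lists were higher in NeuN+ nuclei after CFC, with 1 gene of each called, and the microglia sums overlapped. In these comparisons 14.4% of all genes were called at 10 and 24.7% at 30 minutes. The 7 oligodendrocyte markers summed to 65.5 to 87.3 CPM in naive, 121 to 157 CPM in CFC10 and 119 to 185 CPM in CFC30 libraries, with medians of 83, 134 and 178 CPM and no overlap of naive and CFC. Only 2 of the 7 could be tested. *Mbp*, the myelin basic protein gene, rose by 0.87 and 1.15 on the log2 scale (adjusted p = 6.9e-05 and 7.32e-07, edgeR). The other gene tested did not pass (-0.01 and -0.16), and *Mog* stayed at 0 to 0.679 CPM. The 5 astrocyte markers summed to 599 to 648 CPM, 652 to 736 CPM and 692 to 703 CPM. Of the 2 tested, *Slc1a2* rose by 0.17 and 0.19 (adjusted p = 0.0129 and 0.00344, edgeR) and *Aldoc* did not pass (-0.07 and -0.05). Microglia markers summed to 1.46 to 3.39 CPM, 2.32 to 3.19 CPM and 2.27 to 3.36 CPM. The part of these lists in the differences of *Pde10a* and *Rgs9* was not tested. The 12 early response genes summed to 68.8 to 95.9 CPM in naive, 359 to 416 CPM in CFC10 and 223 to 254 CPM in CFC30 mPFC NeuN+ nuclei, and 11 and 10 of 11 tested rose. At 30 minutes *Arc*, which encodes a synaptic protein, rose by 2.79 on the log2 scale, and the transcription factor genes *Egr3*, *Nr4a3* and *Nr4a1* rose by 2.17, 1.91 and 0.91.

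Of all genes tested in mPFC NeuN+ nuclei, 24.7% were called at 30 minutes. Among the neuronal markers at that time, 1 of 9 projection neuron genes rose (*Slc17a7*, a vesicular glutamate transporter, 0.20, adjusted p = 0.00555, edgeR) and 2 fell. The layer and lineage genes *Rorb* (-0.52, adjusted p = 9.05e-05) and *Emx1* (-0.48, adjusted p = 0.0093, edgeR) fell, and *Fezf2* did not pass (0.29, adjusted p = 0.183). Of 8 GABAergic genes tested, *Gad1*, which makes the enzyme for GABA synthesis, rose (0.33, adjusted p = 0.000945, edgeR), while *Slc32a1* (-0.25), *Gad2* (0.09) and *Vip* (0.09) did not pass. The genes tested from the hippocampal neuron list (*Wfs1*, 0.14), the olfactory bulb list (*Doc2g*, -0.36) and the septum list (*Trpc4*, 0.06) did not pass either. The part of any of these in the values of the 8 members was not tested.

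Library by library, the highest mPFC library was not the same for all members. The highest of the 9 NeuN+ libraries was CFC10 replicate 3 for *Pde10a*, CFC30 replicate 2 for *Drd1* and *Ppp1r1b*, CFC30 replicate 3 for *Drd2*, *Adora2a*, *Rgs9* and *Penk*, and naive replicate 2 for *Tac1*. These libraries were the highest for 8.05%, 8.07%, 9.28% and 13% of all genes tested. CFC10 replicate 3, the highest for *Pde10a*, was the lowest for *Drd1* by CPM (2.48, against 2.56 CPM in CFC10 replicate 1). With 31 to 43 *Drd1* counts in the CFC10 libraries, that margin is within counting error. Over the 15 pairs of the 6 members with a mean of at least 1 CPM, Pearson's r of the deviations from the condition means ran from -0.71 to 0.71 over the 9 libraries, with a median of 0.04, and 9 of 15 were above 0. The pair of *Pde10a* and *Drd1* was at -0.71, *Pde10a* and *Rgs9* at -0.53, *Pde10a* and *Ppp1r1b* at -0.19, and *Rgs9* and *Penk* at 0.71. On the values themselves, where the condition is shared, *Pde10a* was at 0.66 with *Rgs9* and 0.68 with *Ppp1r1b*. These points share library, depth and condition, and the coefficients are a description. *Drd1*, *Drd2*, *Penk* and *Ppp1r1b* had few counts in these libraries, from 21 for *Drd2* to 130 for *Ppp1r1b*. Counting error alone can hold their r near 0, so the coefficients cannot show whether these members vary together.

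**Figure D5:**
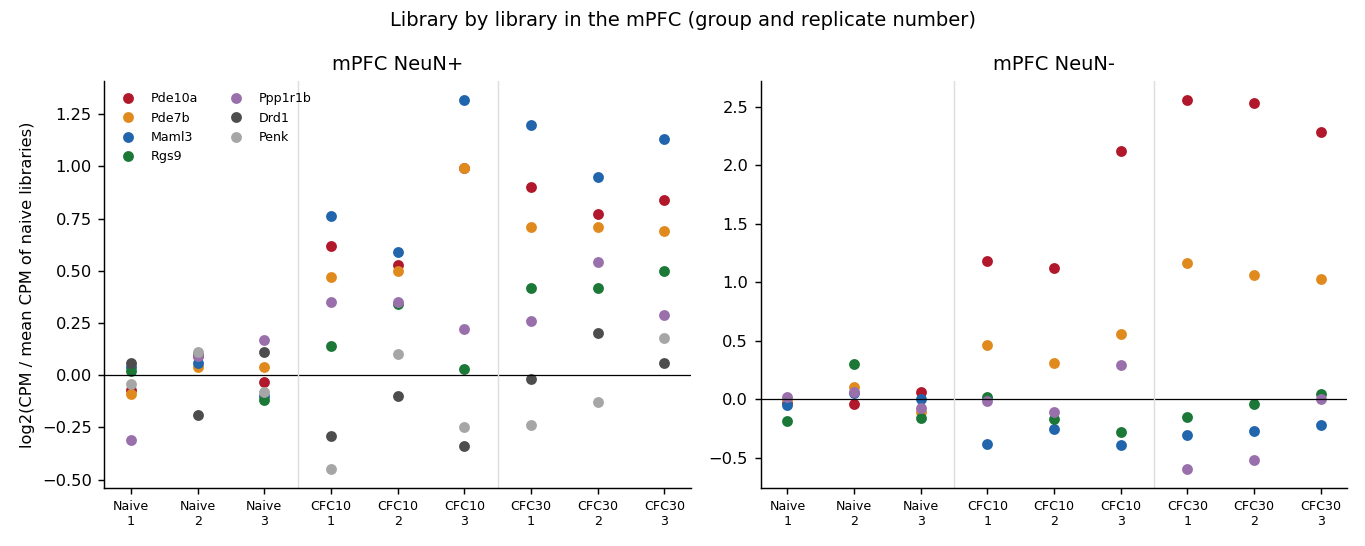
log2 of the CPM over the mean of the 3 naive libraries for *Pde10a*, *Pde7b*, *Maml3* and 4 other members in each mPFC library, by group and replicate number (*Drd1* and *Penk* are drawn for NeuN+ nuclei alone). CFC10 replicate 3 is the highest CFC10 library for *Pde10a*, *Pde7b* and *Maml3* in NeuN+ nuclei. *Drd1* is lowest there by a margin within counting error, and *Maml3* is below its naive level in all CFC libraries of NeuN- nuclei.

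The genes most like the mean of those 6 members over the 9 libraries, out of 9057 ranked, were *Pknox1* (r = 0.955), *Fxr1* (0.950), *Tet2* (0.925), *Eif4e* (0.922) and *Map1b* (0.921), with *Abi2*, *Nup153*, *Pitpna*, *Actr2*, *Ccar1*, *Pik3c2a*, *Ccdc127*, *Nedd4* and *Ep300* (0.907) among the 15 highest. None of the 15 was on a fixed list of marker genes. The best placed of the other striatal genes was *Adcy5* at rank 690 (r = 0.677), then *Pde7b* at 1417 (0.572) and *Bcl11b* at 1857 (0.510), and *Tshz1* was at 8756 (-0.714). On deviations from the condition means the first of 15 were *Susd1* (0.993), *Smug1* (0.972) and *D230025D16Rik* (0.968), and the last *Mzf1* (0.934), again with none on a list. Between 4 and 12 of the 15 stayed when 1 library was left out on the values, and between 2 and 8 on the deviations. The mean includes *Drd1*, *Drd2*, *Penk* and *Ppp1r1b*, which had few counts. Among 9057 genes compared over only 9 libraries, high coefficients can also arise by chance. These coefficients and those that follow are a description.

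Against *Pde10a* alone, a choice made after its values were seen, the first 5 genes were *Maml3* (r = 0.992), *Grin2a* (0.988), *Pde7b* (0.982), *Phactr1* (0.979) and *Ppm1h* (0.976). *Clvs1*, *Sorcs3*, *Sv2c*, *Slc2a13*, *Sipa1l1*, *Slc8a1*, *Ptk2*, *Gdpd5*, *Crtac1* and *Mapk4* (0.964) followed. On deviations they were *Phactr1* (0.981), *Nell2* (0.975), *Prkca* (0.957), *Tmem108* (0.955) and *Maml3* (0.952), with *Pde7b* at rank 11 (0.913) and *Meis2* at 17 (0.885). Without CFC10 replicate 3, 7 of the 15 stayed on the values and 0 on the deviations, so the order on deviations rests on this library. *Maml3*, which encodes a coactivator of Notch signalling, was at 230, 234 and 210 CPM in naive, 382, 339 and 560 CPM in CFC10 and 517, 433 and 491 CPM in CFC30 NeuN+ libraries. In NeuN- nuclei it went the other way, from 537 to 578 CPM in naive to 424 to 465 CPM in CFC10 and 451 to 477 CPM in CFC30 libraries, whereas *Pde10a* and *Pde7b* were higher there.

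γH2AX, the phosphorylated histone that marks chromatin around DNA double-strand breaks, was mapped in whole tissue of both regions, with the peaks of naive and CFC30 animals joined into 1 list for each region. None of the 282 hippocampal or 260 mPFC peaks in these lists overlapped a member. The paper reports somewhat more peaks for each region, so these lists may not hold all of them. The nearest was the peak of *Neurod2*, a transcription factor gene of excitatory neurons, which ended 18629 bp from *Ppp1r1b* in the hippocampus and 18831 bp from it in the mPFC. The peak nearest to *Pde10a* was 1206623 bp away in the hippocampus, at *Qk*, and 15901054 bp away in the mPFC. These lists hold no values for single replicates.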

How the data were processed

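Nuclear RNA of sorted nuclei was sequenced in 74 of the 88 libraries of the series, and 73 were used after an identical pair was counted once. The authors cut the first 3 bases of the reads with Trimmomatic, aligned them to GRCm38 with HISAT2, and deposited raw counts per gene over the whole gene body from featureCounts (versions not given in the sources used here). The γH2AX peaks (Bowtie2, MACS2) were used only as positions.

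Of 53749 identifiers, 53682 matched GENCODE vM21. CPM are counts per 1000000 counts of a library, and FPKM divides them by gene length in kilobases. Group differences were tested with edgeR 4.0.16 (R 4.3.3; TMM scaling, quasi-likelihood F test, Benjamini-Hochberg adjustment over all genes tested, called under 0.05), after a filter that kept genes with a mean above 0.2 FPKM in at least 1 group compared. The fit was tested on simulated data. DESeq2 1.42.0, no filter, the replicate number as a block and leaving out each library were the alternatives. Tables were made with Python 3.11.15 and pandas 2.3.3.

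The 8 genes and the 17 gene lists were chosen with earlier results of these data known. The text names all 8 members, of each list the 4 genes with the smallest p in mPFC NeuN+ nuclei 30 minutes after CFC, and the 15 genes most like the members (Pearson's r of log2(CPM + 0.5) over the 9 mPFC NeuN+ libraries, mean of at least 5 CPM). Other genes named were chosen after their values were seen or define a cell type. A few genes that these rules name are not reported here.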

Additional observations from a re-analysis of the deposited data

Results flagged for a closer look

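In 104 groups of 4 or more libraries, each of a member in a fraction, the highest or lowest library was compared with the rest of its group by Dixon's test. Chance flags about 1 in 20 groups. *Pde10a* was lowest in replicate 4 of NeuN+ nuclei after corticosterone, at 989 CPM, where the next library had 1059 CPM and the highest 1072 CPM. *Penk* was lowest in replicate 1 of the same group, at 3.33 CPM against 4.81 CPM for the next. *Adora2a* was highest in that replicate 1, at 0.333 CPM against 0.138 CPM. In PU.1+ nuclei after corticosterone, *Adora2a* was at 2.04 CPM in replicate 1 against 0.692 CPM for the next library, and *Ppp1r1b* at 2.21 CPM in replicate 2 against 1.41 CPM. *Rgs9* was highest in replicate 2 of NeuN+ nuclei after saline, at 39.8 CPM against 38.2 CPM, and in replicate 1 of hippocampal NeuN- nuclei 10 minutes after CFC, at 27.8 CPM against 21.1 CPM. *Drd1* had a count of 0 in replicate 4 of hippocampal NeuN- nuclei 30 minutes after CFC, where the next library was at 0.0752 CPM.

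*Drd1* in NeuN- nuclei moved in opposite directions in the 2 regions 10 minutes after CFC, by a mean of 0.0787 CPM in the mPFC and -0.142 CPM in the hippocampus. Both lie within the range that a count of 0 allows, the difference between regions was not tested, and 32 such pairs were looked at.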

How the results depend on the processing

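The labels do not say whether same-numbered libraries share animals, and the replicate numbers were not taken as pairs, since no comparison had every correlation of deviations between same-numbered libraries above 0.1. Naive and CFC libraries ranged from -0.01 to 0.12 in mPFC NeuN+, 0.02 to 0.26 in mPFC NeuN-, -0.07 to 0.1 in hippocampal NeuN+ and -0.23 to 0.35 in hippocampal NeuN- nuclei, and the mPFC fractions from -0.02 to 0.14. With the replicate block, the genes called went from 51 to 180 (CFC10) and from 352 to 600 (CFC30) in hippocampal NeuN- nuclei, and from 261 to 396 after corticosterone. Without the filter on low values they went from 254 to 716 and from 870 to 1471 in mPFC NeuN- nuclei, from 604 to 1032 in hippocampal NeuN+ nuclei (CFC10), and from 51 to 514 and 352 to 914 in hippocampal NeuN- nuclei. DESeq2 called 181 genes in hippocampal NeuN- nuclei (CFC10) and 167 after corticosterone. All fits after corticosterone are of NeuN+ nuclei. Leaving out 1 library gave 1180 to 1684 and 2333 to 2913 calls in mPFC NeuN+ nuclei (1876 and 3210 with all), 28 to 156 and 402 to 731 in mPFC NeuN- nuclei, 190 to 667 and 618 to 1247 in hippocampal NeuN+ nuclei (1064 with all at CFC30), 3 to 16 and 61 to 343 in hippocampal NeuN- nuclei, 10889 to 11130 between the hippocampal fractions (11357 with all), and 181 to 326 after corticosterone. Without the filter, *Pde10a* passed at CFC10 in hippocampal NeuN- nuclei (0.28, adjusted p = 0.00939), as did its difference between hippocampal fractions at CFC30 (0.51, adjusted p = 4.48e-05, edgeR). The fold changes of members that reversed were uncalled in every setting. In hippocampal NeuN+ nuclei at CFC10 *Rgs9* was 0.01 without the filter and -0.05 to 0.02 with 1 library left out. With 1 library left out, *Penk* ranged from -0.50 to 0.17 at CFC10 and from -0.38 to 0.29 at CFC30 in hippocampal NeuN- nuclei, *Rgs9* from -0.02 to 0.08 and *Ppp1r1b* from -0.18 to 0.04 at CFC30 there, and after corticosterone *Pde10a* ranged from -0.03 to 0.05, *Drd1* from -0.23 to 0.33 and *Rgs9* from -0.04 to 0.05. In the mPFC, *Penk* ranged from -0.15 to 0.03 in NeuN+ and from -0.55 to 0.25 in NeuN- nuclei at CFC30, and in NeuN- nuclei *Rgs9* from -0.22 to 0.05 and *Ppp1r1b* from -0.06 to 0.15 at CFC10 and *Rgs9* from -0.11 to 0.15 at CFC30. The cause of these shifts was not tested. *Pde10a* was called in hippocampal NeuN+ nuclei at both times, and at CFC30 in NeuN- nuclei, under every alternative. In mPFC NeuN+ nuclei, *Ppp1r1b* at CFC30 was not called without naive replicate 1 (0.27), without CFC30 replicate 2 (0.29) or by DESeq2 (0.39), and *Rgs9* at CFC10 was called without CFC10 replicate 3 (0.24). The choice of the genes had these mPFC comparisons in view, so nothing is read from whether a member was called in them. In mPFC NeuN- nuclei 48 genes were called at CFC10 without CFC10 replicate 3 of that fraction. *Drd2*, *Adora2a* and *Tac1* were below the filter of 0.2 FPKM and were fitted only without it.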
